A study of Takifugu obscurus with 9 samples.

Results

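The solute carriers analysed here were 192 genes of obscure puffer (Takifugu obscurus) kidney. They were chosen from a table of 46444 assembled features by a fixed rule. A feature was taken when its best protein match was to a fish, its name began with SLC and a digit, and its level averaged at least 5 TPM (a transcript abundance corrected for length and scaled to the same total in every library) over the 9 libraries. The organic ion family SLC22 and the names beginning SLC40, SLC39A14, SLC4A1 and SLC2A1 were left out, and where features shared a name the highest one stood for it. Of 242 carrier names with a fish match outside those families, 192 reached 5 TPM and 50 did not. The members just inside the threshold were SLC38A7 at 5.03 TPM and SLC1A7 at 5.01 TPM, and the names just outside it were SLC25A32 at 4.89 TPM and SLC9A3R2 at 4.78 TPM. Since mean level chose the genes, their levels are given as description. The rule uses no difference between groups, though the set was proposed with earlier results of these data known.

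Whole kidneys came from fish aged 3 months. The control group had 3 libraries at 0 h, and fish given poly(I:C), a double-stranded RNA made in the laboratory that stands in for viral RNA, had 3 libraries at 12 h and 3 at 48 h. Whether control fish received an injection is not given, and there were no later controls, so treatment and elapsed time cannot be told apart. The labels name no strain, sex, dose or batch, nor whether the replicates of a group are different fish, so a p-value here covers the spread between these libraries, which may be technical.

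Solute carriers are membrane proteins that move sugars, amino acids, ions, metals, vitamins and metabolites across cell membranes or organelle membranes without splitting ATP themselves. In the kidney tubule, carriers on the brush border reclaim filtered solutes, mostly by coupling to the sodium gradient that the sodium pump maintains, and carriers on the other face pass them to the blood. Mitochondrial carriers of the SLC25 family exchange metabolites across the inner mitochondrial membrane in every cell. The roles given for single genes are those known from mammals unless another species is named, and the fish kidney also holds blood-forming tissue.

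The columns totalled 993873 to 996068 TPM, and the carriers together held 0.586% to 0.828% of them. Their summed level was 8241, 8130 and 5967 TPM in control libraries 1 to 3, 6330, 5828 and 6140 TPM at 12 h, and 7279, 7325 and 6083 TPM at 48 h. At the carriers' median length of 2703 nucleotides 1 read was worth about 0.0209 to 0.0272 TPM, so that 5 TPM stood for about 184 to 240 reads. All 192 carriers had at least 1 TPM in every library, and all passed the filter used for testing. Of the 192, 173 had their best match in Takifugu rubripes and 7 in Takifugu obscurus. For 57 the same name was carried by more than 1 fish-matched feature, so that paralogues or fragments may share reads with them. No genome was used here, so no positions are given.

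The carriers came from 42 families, of which 12 had 1 member. Their median level was 16.9 TPM, with 11 at or above 100 TPM, 17 from 50 to 100 TPM, 126 from 10 to 50 TPM and 38 from 5 to 10 TPM. The 10 highest held 36.5% of the summed TPM. Across the 9 libraries the highest and lowest value of a carrier differed by a median of 1.10 log2 units, from 0.29 in SLC35B4, a nucleotide sugar carrier, to 3.39 in SLC5A9. This range reached 2 log2 units in 33 carriers and stayed under 1 in 77.

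**Figure D1:**
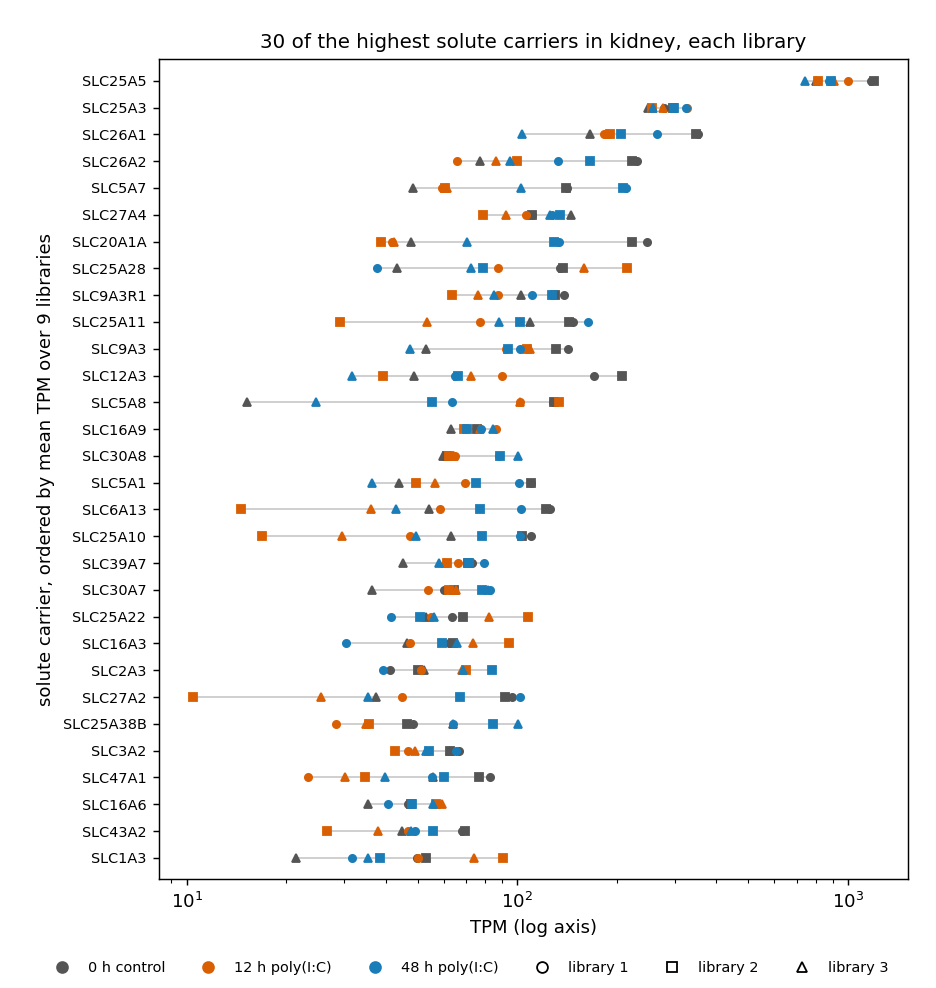
TPM (log axis) of 30 of the carriers with the highest means in each of the 9 libraries. Colour gives the group, marker shape gives the library number, and each grey line spans the 9 values. SLC25A5 lies above all others in every library, and control library 3 lies apart from control libraries 1 and 2 for many carriers.

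The SLC25 family, grouped as a whole as mitochondrial carriers, formed the largest group, with 38 members and 31.0% of the carriers' TPM. SLC25A5, an ADP/ATP exchanger, was the highest carrier of all at 934 TPM, with single libraries from 740.0 to 1199 TPM. SLC25A3, the mitochondrial phosphate carrier, averaged 284 TPM and kept within 249 and 325.5 TPM. Among the 23 carriers of inorganic ions and acid-base equivalents, SLC26A1, a sulfate and oxalate exchanger, averaged 222 TPM. It was lower in control library 3, with 167 TPM against 352 and 347 TPM in control libraries 1 and 2.

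The SLC2, SLC5, SLC45 and SLC50 families, grouped as sugar carriers, had 15 members, and their highest names are not sugar carriers. SLC5A7, annotated as a high-affinity choline transporter, averaged 115 TPM, and SLC5A8, a sodium-coupled monocarboxylate transporter, averaged 83.8 TPM. SLC5A8 read 129, 129 and 15.3 TPM in control libraries 1 to 3, so that the control group alone spanned most of its range. Of the 33 amino acid and peptide carriers the highest were SLC6A13, a GABA and taurine transporter, at 70.4 TPM and SLC3A2, the shared heavy chain of the SLC7 exchangers, at 55.8 TPM. The SLC6A13 feature held 37.4% of the TPM of its name, which 9 features carried. Summed over the 9, the means of SLC6A13 were 246, 124 and 194 TPM at 0 h, 12 h and 48 h. Summed over its 5 features SLC6A6, named after its values were seen, had means of 116, 92.4 and 118 TPM at 0 h, 12 h and 48 h. The single feature of SLC3A2 had 63.8, 46.1 and 57.5 TPM.

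The 9 carriers of phosphate, sulfate and dicarboxylates were led by copies of a sodium-phosphate transporter, SLC20A1A at 108 TPM and SLC20A1B at 38.6 TPM. The copies differed in spread. SLC20A1A read 247, 222 and 47.8 TPM in the controls, 41.95, 38.6 and 42.3 TPM at 12 h and 134, 129 and 70.4 TPM at 48 h, while SLC20A1B stayed between 34.1 and 44.6 TPM in all 9 libraries. The lowest control of SLC20A1A lay just above the 12 h values and its other controls far above them. Neither copy passed the threshold in any comparison (limma, smallest Benjamini-Hochberg adjusted p for SLC20A1A 0.155).

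Of the 18 metal carriers the highest were the zinc transporters SLC30A8 at 72.5 TPM and SLC39A7 at 65.1 TPM. The 18 carriers of monocarboxylates, bile acids, organic cations and fatty acids were led by SLC27A4, a long-chain fatty acid transport protein, at 115 TPM and SLC16A9, a monocarboxylate transporter relative, at 75.5 TPM. The 35 carriers of nucleosides, nucleotide sugars, vitamins and choline were led by SLC28A2 at 44.6 TPM and SLC29A2 at 39.7 TPM, both nucleoside carriers. Ranks in all groups are of single features, and names summed over their features can rank higher. SLC23A1, named after its values were seen, summed to means of 79.1, 50.9 and 60.0 TPM at 0 h, 12 h and 48 h, above both. The protein match of the SLC28A2 feature was sodium/nucleoside cotransporter 1, and that of the SLC35A2 feature was a creatine transporter, so both names may be those of a relative. Outside these groups were the haem transporter SLC48A1B at 29.9 TPM and 2 genes that carry the name but are not carriers, the brush border scaffold SLC9A3R1 at 102 TPM and SLC7A6OS at 16.8 TPM.

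Control libraries 1 and 2 lay closer to each other than any other pair, and control library 3 differed from both. On log2(TPM + 1) values the carriers correlated with Pearson's r = 0.995 between control libraries 1 and 2 and from 0.718 to 0.959 in the other 35 pairs of libraries, given as a description over 192 genes that share libraries. Control library 3 had r = 0.842 and 0.846 with control libraries 1 and 2 and 0.884 to 0.927 with the 48 h libraries. The lowest r of all, 0.718, was between 12 h library 2 and 48 h library 1. The median absolute difference between control libraries 1 and 2 was 0.0849 log2 units, against 0.213 to 0.609 in the other pairs. Sampling noise was judged on longer features of 1 transcript with enough estimated reads, 3527 to 3865 of them in a pair. Over these, the median squared difference between control libraries 1 and 2 was 1.65 times that of read sampling. In the other pairs it was 6.07 to 35.9 times. In control library 3, 36 carriers (18.8%) were at least 1 log2 unit below the mean of the other controls, against 7.15% of fish-matched features of at least 5 TPM, and 6 (3.13%) were at least 1 unit above, against 5.19%. The median of this difference was -0.99 in the sugar group and -0.58 in the inorganic ion group, and 0.09 in the amino acid group. The same library had summed proximal tubule markers of 237 TPM (8 of 10 measured) against 606 and 553 TPM in the other controls, distal tubule markers of 196 TPM (5 of 8) against 536 and 500 TPM, and erythroid markers of 6462 TPM (4 of 12) against 1511 and 1569 TPM. Results are given below with controls 1 and 2 as separate libraries, and again with them averaged.

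**Figure D2:**
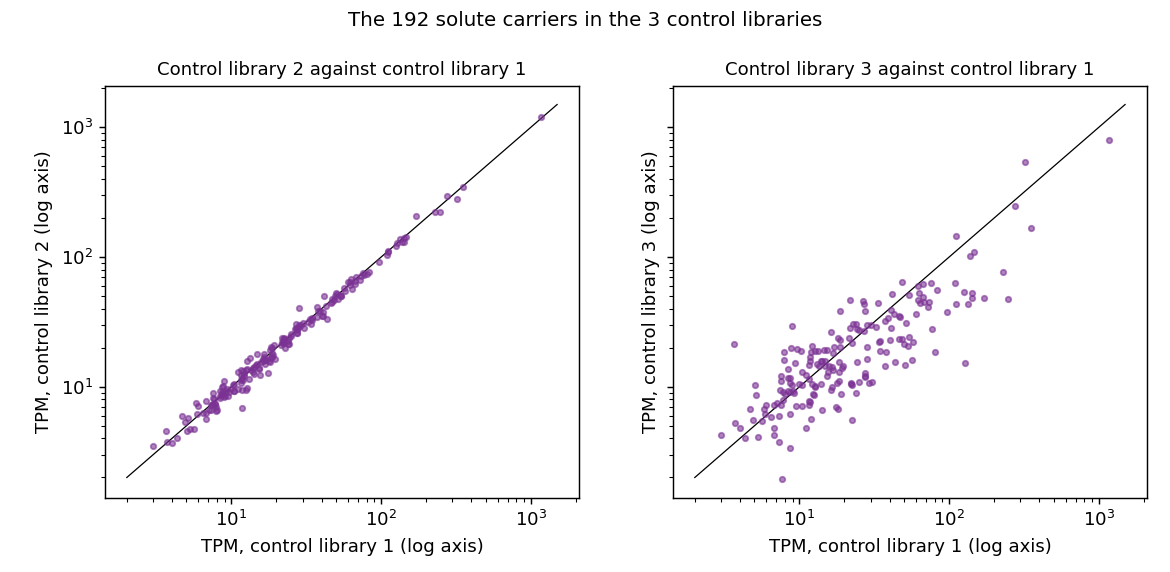
TPM of the 192 carriers (log axes) in control library 2 (left) and control library 3 (right) against control library 1, with the line of equal values. Points lie close to the line on the left (r = 0.995), and on the right many lie below it, 36 of them by at least 1 log2 unit against the mean of libraries 1 and 2.

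At 12 h after poly(I:C), 4 carriers were called lower than in the controls at an adjusted p under 0.05 (limma), and none was called higher. SLC6A18 (feature TRINITY_DN21442_c0_g2), which in mouse takes up neutral amino acids at the proximal tubule brush border, read 63.6, 56.4 and 44.4 TPM in the controls, 14.7, 10.8 and 13.6 TPM at 12 h and 39.8, 38.8 and 19.4 TPM at 48 h. Every 12 h library lay below every library of the other groups. It fell by 1.99 log2 units (SE 0.27, limma, adjusted p = 0.0151). A smaller amount of a transcript in whole kidney can come from fewer cells that hold it or from less of it per cell, and these cannot be told apart here.

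SLC6A12 (TRINITY_DN20366_c0_g1), the betaine transporter that cells use to take up this osmolyte, read 13.4, 16.6 and 19.0 TPM in the controls, 7.66, 6.47 and 6.07 TPM at 12 h and 9.34, 12.6 and 11.9 TPM at 48 h. The 12 h values lay below all others, and the fall was 1.15 log2 units, written as a log2 fold change of -1.15 (SE 0.19, limma, adjusted p = 0.0263). SLC46A2 (TRINITY_DN20413_c1_g1), a relative of the proton-coupled folate transporter first described in thymic stroma, read 18.4, 20.1 and 12.9 TPM in the controls, 6.93, 9.14 and 6.93 TPM at 12 h and 11.7, 12.7 and 10.3 TPM at 48 h. Here too the 12 h libraries were the lowest, with a log2 fold change of -1.05 (SE 0.20, limma, adjusted p = 0.0398).

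SLC47A1 (TRINITY_DN23424_c0_g1), the proton-driven exporter MATE1 that passes organic cations into the urine, read 82.9, 76.5 and 55.8 TPM in the controls, 23.2, 34.6 and 30.1 TPM at 12 h and 55.4, 60.0 and 39.7 TPM at 48 h. Its log2 fold change was -1.26 (SE 0.22, limma, adjusted p = 0.0336), with no overlap between 12 h and either other group. Of the 5 fish-matched features with this name it held 63.5% of the TPM. The next highest, not counted among the 192, read 34.9, 35.5 and 29.0 TPM in the controls, 6.52, 5.88 and 8.71 TPM at 12 h and 35.0, 30.2 and 13.6 TPM at 48 h. That feature was lower at 12 h than at 0 h by the same test (log2 fold change -2.10, limma, adjusted p = 0.0195) and higher at 48 h than at 12 h (1.68, adjusted p = 0.0328). The 2 features have the same protein description, and reads may have been split between them.

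**Figure D3:**
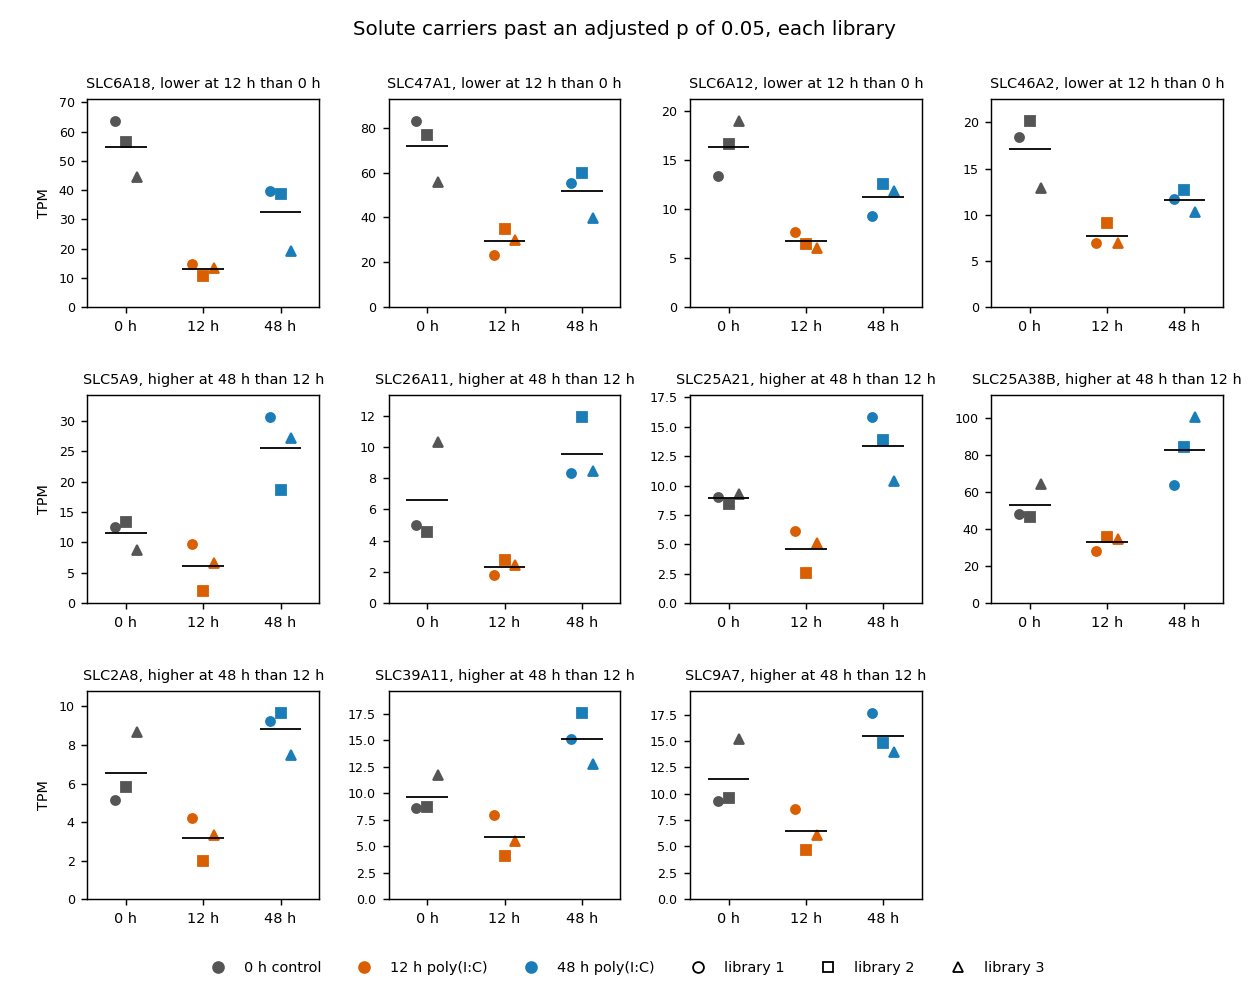
TPM of the 11 carriers past an adjusted p of 0.05 in each library (limma). The first row holds the 4 that were lower at 12 h than at 0 h and the other rows the 7 that were higher at 48 h than at 12 h. Black bars are group means (n = 3), and each vertical axis starts at 0. The 12 h libraries lie below the controls in the first row and below the 48 h libraries in the others.

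These 4 were 2.08% of the carriers, beside 1.42% of all features (0.831% lower) and 2.86% of fish-matched features of at least 5 TPM (1.65% lower), so the share called was near the background. At an unadjusted p under 0.05 there were 61 carriers (31.8%), 16 of them higher, against 15.9% of all features and 22.2% of the fish-matched ones. The 12 h libraries lay below all controls for 37 carriers (19.3%), where the background was 12.7% and 13.9%, and above all controls for 23 (12.0%), where it was 8.25% and 14.1%. The carriers' median log2 fold change was -0.04, with -0.07 over all features and 0.01 over the fish-matched ones. A log2 fold change of -1 or lower was found in 21 carriers (10.9%) and in 4.76% of the fish-matched features, and one of 1 or higher in 1 carrier (0.521%) and in 2.23%. That carrier was SLC6A5, a glycine transporter named after its values were seen, at 8.71, 8.64 and 3.39 TPM in the controls, 18.7, 25.1 and 22.4 TPM at 12 h and 42.1, 17.4 and 7.03 TPM at 48 h (log2 fold change 1.62, limma, adjusted p = 0.174).

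None of the 4 passed with control libraries 1 and 2 averaged (limma, adjusted p = 0.0764 for SLC6A18, 0.0857 for SLC6A12, 0.130 for SLC47A1 and 0.160 for SLC46A2). None passed without control library 1, control library 2, 12 h library 2 or 12 h library 3. Without control library 3, 11 carriers passed, 10 lower and 1 higher, with all 4 among them. That fit leaves control libraries 1 and 2, the closest pair, as the only controls. Over all features it called 876, against 647 with all libraries, and the part of that closeness was not tested. Without 12 h library 1, 6 passed, all lower, and 2 of the 4 were among them. Without 48 h library 2, 2 passed.

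By role, the 4 lower carriers were 2 of 33 for amino acids and peptides, 1 of 18 for monocarboxylates, bile acids, organic cations and fatty acids, and 1 of 35 for nucleosides, nucleotide sugars, vitamins and choline. No member of the mitochondrial, inorganic ion, metal, sugar or phosphate groups passed. In the sugar group 10 of 15 members had values below 0 for the log2 fold change and the median was -0.70, and in the inorganic ion group it was 17 of 23 with a median of -0.41. The members of 4 groups had medians from -0.04 to 0.14, which were the mitochondrial, nucleoside, amino acid and metal carriers. Summed over its 15 members the sugar group read 644, 640 and 282 TPM in the controls, 418.5, 412 and 401 TPM at 12 h and 615.5, 605 and 368 TPM at 48 h. The 12 h sums lay between control library 3 and the other controls. The inorganic ion group summed to 1694, 1662 and 1206 TPM in the controls, and its 12 h sums were 1120.1, 976 and 1044 TPM, with every 12 h sum below every control.

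**Figure D4:**
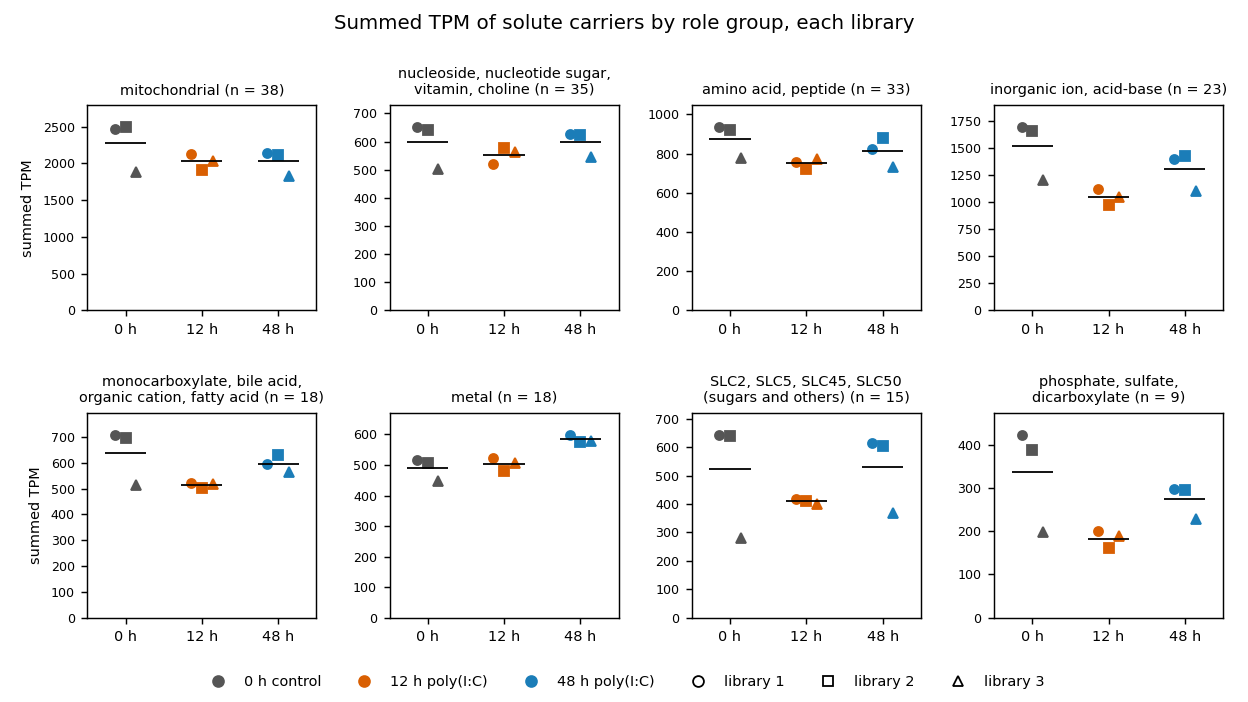
Summed TPM of the carriers in the 8 role groups of at least 9 members, in each library. Black bars are group means (n = 3), marker shape gives the library number, and each vertical axis starts at 0. In all 8 groups control library 3 is below control libraries 1 and 2, and the metal carriers are highest at 48 h.

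Several apical and mitochondrial carriers had fold changes in the range of the called ones without passing, and are named here after their values were seen. SLC5A11, a myo-inositol transporter, read 28.3, 28.8 and 16.4 TPM in the controls, 8.39, 2.17 and 5.38 TPM at 12 h and 28.3, 25.1 and 11.1 TPM at 48 h. Its log2 fold change of -2.11 was the lowest of all carriers at 12 h against 0 h and just missed the threshold (limma, adjusted p = 0.0540). All 3 of its 12 h libraries lay below all others. SLC26A6, a chloride/anion exchanger that in marine fish takes part in sulfate secretion, read 80.1, 74.7 and 18.7 TPM in the controls, 16.0, 8.32 and 13.3 TPM at 12 h and 41.8, 45.8 and 22.7 TPM at 48 h. Its log2 fold change was -1.91 (limma, adjusted p = 0.109), and control library 3 lay close to the highest 12 h library. The mitochondrial dicarboxylate carrier SLC25A10 read 110.1, 103 and 62.9 TPM at 0 h and 47.3, 16.9 and 29.5 TPM at 12 h (log2 fold change -1.60, limma, adjusted p = 0.0793). The 2-oxoglutarate/malate carrier SLC25A11 read 147, 143 and 109.6 TPM at 0 h and 77.4, 29.0 and 53.3 TPM at 12 h (-1.40, limma, adjusted p = 0.0833). For both, 12 h library 2 was the lowest of the 9.

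The amino acid carrier SLC38A2, which in mammals is raised when amino acids are short, had the opposite sign and is also named after its values were seen. It read 37.3, 41.2 and 32.1 TPM in the controls, 54.9, 64.3 and 65.8 TPM at 12 h and 35.3, 33.9 and 42.4 TPM at 48 h. Its 12 h libraries lay above the other 6, with log2 fold changes of 0.73 against 0 h (limma, adjusted p = 0.0563) and -0.72 for 48 h against 12 h (adjusted p = 0.0537), neither past the threshold.

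At 48 h against 0 h no carrier passed, and the smallest adjusted p was 0.403 (limma). The background was 0.011% of all features and 0.0324% of the fish-matched ones, which were 5 and 4 features. At an unadjusted p under 0.05 there were 30 carriers (15.6%), 22 of them higher, against 11.1% and 17.8%. The 48 h libraries lay above all controls for 39 carriers (20.3%; background 12.3% and 21.4%) and below all controls for 6 (3.13%; background 3.95% and 2.62%). The shares lay near those of the fish-matched features. The median log2 fold change was 0.08, beside 0.13 over all features and 0.18 over the fish-matched ones.

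The 18 metal carriers summed to 516, 508 and 447 TPM in the controls, 524, 480.0 and 506 TPM at 12 h and 599, 575 and 579.5 TPM at 48 h, so the 48 h sums lay above all others. For 8 of the 18 the 48 h libraries lay above all controls and for none below, beside 12.3% of all features and 21.4% of the fish-matched ones above. The group's median log2 fold change was 0.22, near the 0.18 of the fish-matched features, and 0.09 with quantile normalization. SLC30A8, which loads zinc into secretory vesicles, read 62.4, 61.3 and 59.9 TPM in the controls, 65.0, 62.1 and 64.3 TPM at 12 h and 88.4, 88.7 and 100.5 TPM at 48 h. Its 48 h values stood above the other 6 by more than the spread within any group, with log2 fold changes of 0.59 against 0 h (limma, adjusted p = 0.403) and 0.53 against 12 h (adjusted p = 0.0591). All 7 SLC39 zinc importers had log2 fold changes above 0 at 48 h against 0 h, with a median of 0.48, and for 5 of them the groups did not overlap, beside the same 12.3% and 21.4%. No SLC39 member passed in that comparison.

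The SLC12 family holds the salt cotransporters of the distal nephron and was named after its values were seen. SLC12A3, the thiazide-sensitive sodium chloride cotransporter, read 171, 208 and 48.7 TPM in the controls, 89.9, 39.2 and 72.4 TPM at 12 h and 64.8, 66.3 and 31.7 TPM at 48 h. SLC12A1, the sodium-potassium-chloride cotransporter, read 67.3, 65.7 and 49.0 TPM in the controls, 34.5, 43.4 and 39.1 TPM at 12 h and 47.0, 46.4 and 25.9 TPM at 48 h. All 7 SLC12 members were lower in control library 3 than in both other controls. The same held for 109 of the 192 carriers (56.8%) and for 36.5% of fish-matched features of at least 5 TPM. The log2 fold change at 48 h against 0 h was -1.21 for SLC12A3 and -0.63 for SLC12A1, and neither passed in any comparison (limma, smallest adjusted p = 0.242, SLC12A1 at 12 h against 0 h).

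At 48 h against 12 h, 7 carriers were called higher at an adjusted p under 0.05 (limma), and none was called lower. The 12 h libraries take part in both this comparison and that of 12 h against 0 h. Of the 7, the fold change was largest for SLC5A9 (TRINITY_DN23394_c0_g2), a sodium-coupled transporter of mannose and other hexoses, which read 12.5, 13.4 and 8.70 TPM in the controls, 9.70, 2.01 and 6.54 TPM at 12 h and 30.6, 18.6 and 27.2 TPM at 48 h. All 3 of its 48 h libraries lay above the other 6, and it rose by 2.05 log2 units (SE 0.41, limma, adjusted p = 0.0437). SLC2A8 (TRINITY_DN18918_c0_g1), a hexose transporter of internal membranes, read 5.15, 5.80 and 8.69 TPM in the controls, 4.21, 1.96 and 3.31 TPM at 12 h and 9.26, 9.66 and 7.50 TPM at 48 h. The 48 h libraries lay above those at 12 h and overlapped the controls, with a log2 fold change of 1.27 (SE 0.27, limma, adjusted p = 0.0499).

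Both mitochondrial members of this set take part in amino acid metabolism. SLC25A38B (TRINITY_DN19353_c2_g1), a copy of the importer that brings glycine into mitochondria for haem synthesis, read 48.3, 46.3 and 64.2 TPM in the controls, 28.4, 35.5 and 34.8 TPM at 12 h and 63.8, 84.3 and 100.3 TPM at 48 h. Its 12 h libraries were the lowest of the 9, and the rise was 1.29 log2 units (SE 0.20, limma, adjusted p = 0.0216). The erythroid markers summed to 906, 1218 and 1012 TPM at 12 h and to 1222, 410 and 497 TPM at 48 h, a sum made up mostly of the globin HBA, with a log2 fold change of -0.98 at 48 h against 12 h. The other 3 measured had values of 1.03 for TAL1, 0.49 for TFRC and 0.08 for ALAS2, with the 48 h libraries above all 12 h libraries for TAL1 and TFRC. The median of the 4 was 0.29, none passed the threshold in that comparison and none was listed at 0. Their part in the result was not tested. SLC25A21 (TRINITY_DN18234_c0_g2), the carrier of 2-oxoadipate from lysine and tryptophan breakdown, read 9.02, 8.46 and 9.28 TPM in the controls, 6.10, 2.56 and 5.11 TPM at 12 h and 15.8, 13.9 and 10.4 TPM at 48 h. The 3 groups did not overlap, and the log2 fold change was 1.40 (SE 0.27, limma, adjusted p = 0.0367).

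The inorganic ion group held SLC26A11 (TRINITY_DN19370_c1_g3), a sodium-independent sulfate transporter and chloride channel, and SLC9A7, a sodium/proton exchanger of the trans-Golgi network. SLC26A11 read 5.03, 4.53 and 10.3 TPM in the controls, 1.80, 2.73 and 2.46 TPM at 12 h and 8.34, 11.9 and 8.44 TPM at 48 h. The 12 h libraries lay below both other groups, and the rise from 12 h was 1.66 log2 units (SE 0.30, limma, adjusted p = 0.0307). SLC9A7 (TRINITY_DN18660_c0_g2) read 9.34, 9.62 and 15.1 TPM in the controls, 8.51, 4.70 and 6.08 TPM at 12 h and 17.7, 14.8 and 13.9 TPM at 48 h, with a log2 fold change of 1.17 (SE 0.24, limma, adjusted p = 0.0488). The metal group held SLC39A11 (TRINITY_DN21929_c0_g1), a zinc importer, at 8.63, 8.73 and 11.7 TPM in the controls, 7.96, 4.05 and 5.47 TPM at 12 h and 15.1, 17.6 and 12.7 TPM at 48 h. Its 48 h libraries lay above the other 6, and the log2 fold change was 1.27 (SE 0.24, limma, adjusted p = 0.0355). In 6 of these 7 carriers, SLC5A9 being the exception, control library 3 was the highest of the controls.

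The 7 were 3.65% of the carriers, beside 1.68% of all features (1.07% higher) and 3.77% of the fish-matched features of at least 5 TPM (2.5% higher), so this share too was near that of the fish-matched features. At an unadjusted p under 0.05 there were 63 carriers (32.8%), 48 of them higher, against 21.5% and 32.7%. The 48 h libraries lay above all 12 h libraries for 57 carriers (29.7%; background 20.5% and 30.6%) and below all of them for 21 (10.9%; background 7.61% and 11.2%). A log2 fold change of 1 or more was found in 22 carriers (11.5%) and in 6.85% of the fish-matched features, and one of -1 or lower in 4 (2.08%) and in 3.73%.

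The median log2 fold change of the carriers was 0.16, with 0.21 over all features. With quantile normalization the median over all features was 0.04 and that of the carriers 0.01. Under that scaling SLC25A38B and SLC26A11 passed, and the others of the 7 kept their direction and did not pass. The same 2 passed with control libraries 1 and 2 averaged (limma, adjusted p = 0.0376 and 0.0447). None of the 7 passed without 12 h library 2, 12 h library 3, 48 h library 2 or 48 h library 3, and 1 of them passed without 48 h library 1. Without 48 h library 3 another carrier, outside the 7, passed. Without control library 1 or control library 2 there were 2. Without 12 h library 1 there were 15, 13 higher and 2 lower. Without control library 3 there were 24, 20 higher and 4 lower. That fit keeps only the close pair of controls in its estimate of spread, and over all features it called 2492, against 763 with all libraries.

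**Figure D5:**
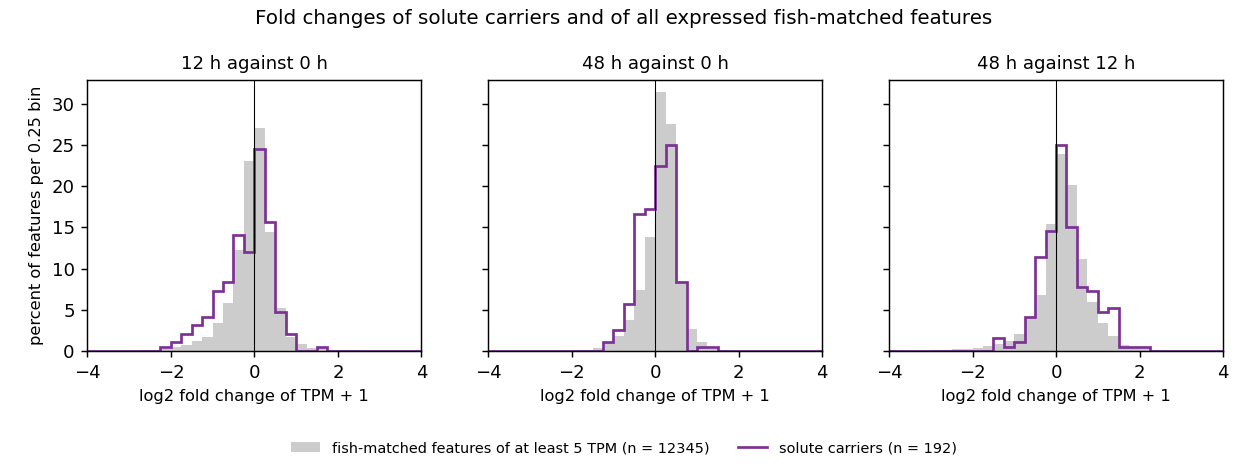
Distribution of log2 fold changes (horizontal axis, bins of 0.25) of the 192 carriers (purple line) and of 12345 fish-matched features of at least 5 TPM (grey), as percent of each set, in the 3 comparisons; values beyond 4 are drawn at the edge. At 12 h against 0 h 10.9% of the carriers lie at -1 or lower, against 4.76%, and at 48 h against 12 h 11.5% lie at 1 or higher, against 6.85%, while the most extreme values are those of other features.

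Families differed in how much their members varied. The 19 SLC35 members, which mostly bring nucleotide sugars into the Golgi and endoplasmic reticulum, had a median range over the 9 libraries of 0.65 log2 units, and the 7 SLC30 zinc exporters 0.74. The 8 SLC5 members had a median range of 2.24 log2 units, the 5 SLC26 members 1.79 and the 10 SLC6 members 1.70. All 8 SLC5 members were lowest among the controls in control library 3, beside 56.8% of all carriers and 36.5% of the fish-matched features. All 4 SLC27 members, which bring in or activate fatty acids, had log2 fold changes below 0 at 12 h against 0 h and above 0 at 48 h against 12 h, and none passed. Of the 6 SLC9 names, which are exchangers of sodium for protons and the scaffold SLC9A3R1, 5 were below 0 at 12 h against 0 h, with non-overlapping groups for 4, beside 12.7% of all features and 13.9% of the fish-matched ones. The family sets were described after their values were seen.

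Genes that work beside the carriers were read from a list of 65 transport partners, of which 44 were measured. In this list and the marker lists, measured means that a tested fish-matched feature had the exact symbol listed. A gene held under another symbol counts as not measured. At 12 h against 0 h 3 of the 44 were called lower, beside 0.831% of all features and 1.65% of the fish-matched ones. In the same comparison 1 was called higher, beside 269 of 45473 features. At 48 h against 12 h 1 was called higher, beside 1.07% of all features and 2.5% of the fish-matched ones. At 48 h against 0 h none passed. ATP1B4, in other vertebrates related to the sodium pump beta subunits, read 16.4, 13.9 and 12.3 TPM in the controls, 2.0, 1.23 and 1.05 TPM at 12 h and 15.3, 11.8 and 6.29 TPM at 48 h. Its 12 h libraries were far below the other 6, with log2 fold changes of -2.66 at 12 h against 0 h (limma, adjusted p = 0.00686) and 2.26 at 48 h against 12 h (adjusted p = 0.0131). The water channel AQP1 read 119.8, 126 and 70.3 TPM in the controls, 31.2, 32.04 and 36.3 TPM at 12 h and 63.5, 66.9 and 36.1 TPM at 48 h (-1.60 at 12 h against 0 h, limma, adjusted p = 0.0322). WNK4, a kinase that regulates the SLC12 cotransporters, read 13.3, 11.4 and 10.6 TPM at 0 h and 4.82, 4.13 and 4.35 TPM at 12 h (-1.23, limma, adjusted p = 0.0151). For all 3, every 12 h library lay below every control. ATP6V1A, a subunit of the vacuolar proton pump, rose from 51.7, 52.0 and 49.9 TPM at 0 h to 74.4, 89.9 and 83.4 TPM at 12 h (0.67, limma, adjusted p = 0.0493).

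Marker lists of other cell types and of the tubule were read beside the carriers. The 8 measured proximal tubule markers summed to 237 to 606 TPM in the controls, 165 to 264 TPM at 12 h and 236 to 372 TPM at 48 h. Of the 8, 2 were called lower at 12 h than at 0 h, the cubilin partner AMN and the peptidase ANPEP. The background was 0.831% of all features and 1.65% of the fish-matched ones. The median log2 fold change of the 8 in that comparison was -1.35, and only DAB2 was above 0, at 0.02. The 5 measured distal tubule markers summed to 196 to 536 TPM in the controls, 173 to 207 TPM at 12 h and 165 to 295 TPM at 48 h. All 5 had log2 fold changes below 0 at 12 h against 0 h, with a median of -0.65, and none was called. The 6 podocyte markers summed to 104 to 121 TPM in the controls, 47.4 to 55.5 TPM at 12 h and 74.2 to 155 TPM at 48 h. Macrophage markers (4 of 7) ranged from 604 to 840 TPM, neutrophil markers (6 of 6) from 1806 to 4030 TPM and B cell markers (4 of 6) from 96.2 to 166 TPM over the 9 libraries, and for each the ranges of the 3 groups overlapped. Calls at 12 h against 0 h were not limited to the tubule lists. The podocyte marker PODXL, the neutrophil marker CXCR2, the macrophage marker MRC1 and the erythroid marker TAL1 were lower, beside the same shares. Their log2 fold changes were -1.74, -2.12, -0.87 and -1.53. The macrophage marker LGALS3 was higher at 0.70, beside 269 of 45473 features called higher. The list medians were -1.09 for podocyte, 0.05 for neutrophil, -0.02 for macrophage and -1.30 for erythroid markers. Also above 0 were the neutrophil markers MMP9 (1.08), NCF1 (0.47) and CYBB (0.13), the podocyte marker WT1 (0.10) and the macrophage marker CTSS (0.24). The other measured markers of these lists were below 0. At 48 h against 12 h PODXL, CXCR2, MRC1 and the podocyte marker NPHS1 were called higher, with 1.62, 2.21, 0.91 and 1.64. The background was 1.07% of all features and 2.5% of the fish-matched ones. The list medians in that comparison were 0.998 for podocyte, 0.27 for neutrophil and -0.38 for macrophage markers. Below 0 were the macrophage markers CTSS (-0.25), LGALS3 (-0.53) and MPEG1 (-0.51) and the neutrophil markers MMP9 (-0.57) and NCF1 (-0.98). The other measured podocyte, neutrophil and macrophage markers were above 0. T and NK cell markers (3 of 9) summed to 34.9, 36.9 and 231 TPM in the controls, 33.9 to 97.7 TPM at 12 h and 119 to 132 TPM at 48 h. Muscle markers (3 of 6) summed to 53.8 TPM in control library 3, 7.01 and 6.74 TPM in the other controls and 2.18 to 10.2 TPM in the remaining libraries. No tubule marker was listed at 0, while the podocyte marker PTPRO and the muscle marker CKM were at 0 in at least 1 library. The part of these cell types in the carriers' values was not tested.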

How the data were processed

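The authors deposited 1 table with 9 value columns, taken as TPM from the values, since the header names no unit, the columns have nearly equal totals and low values step with length. Features carry Trinity gene identifiers, per the file, with protein matches and names given by the authors in the same table; the assembler version, aligner and quantifier are not given in the sources used here. Columns were mapped to libraries by the labels' descriptions.

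The carriers and gene lists were chosen with earlier results of these data known. Names are printed in capitals. Those 45473 features that reached 1 TPM in 3 or more libraries were tested as log2(TPM + 1) with limma 3.58.1 in R 4.3.3, using 1 coefficient per group over all 9 libraries and eBayes with trend and robust options. Tests were two-sided, adjusted by Benjamini-Hochberg over all features tested, and called at an adjusted p under 0.05. Fold changes on this scale understate the change of low genes. The table holds no counts, so depth was estimated from the steps between low values. The fit was tested on simulated data.

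Named genes are the carriers called, the 2 highest of each role group, the 2 on each side of the 5 TPM threshold and the called transport partners; any other gene is marked in the text as picked later, and 1 carrier that the rule names is not reported here. Alternatives were no low-value filter, a 5 TPM filter, quantile normalization, eBayes without the trend, a pseudocount of 0.1, fits of the compared groups alone, a replicate block, averaging control libraries 1 and 2, features summed by name, and leaving out each library.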

Additional observations from a re-analysis of the deposited data

How the results depend on the processing

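Over the alternatives, the counts of carriers called at 12 h against 0 h (4 as reported) and at 48 h against 12 h (7 as reported) moved widely, while at 48 h against 0 h the count was 0 in all of them. The counts take both directions. The first count was 1 without the eBayes trend, 7 with a 5 TPM filter (1 of them higher) and 1 with only the compared groups. It was 0 with control libraries 1 and 2 averaged and 14 with features summed by name (4 of them higher). The second was 2 with quantile normalization, 0 without the trend and 16 with a 5 TPM filter (1 of them lower). It was 4 with a pseudocount of 0.1, 4 with only the compared groups and 2 with control libraries 1 and 2 averaged. With features summed by name the second was 26 (4 of them lower). Both counts were 0 with the controls averaged and 12 h library 3 left out, an alternative chosen after seeing the data. Leaving out single libraries gave 0 to 11 and 0 to 24, with both directions counted. The 11 and the 24 came from the fit without control library 3, whose only controls are the close pair 1 and 2. The filter and the sums test fewer features, and leaving out libraries leaves fewer samples; for the rest the cause was not tested.

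With the replicate number as a block the counts were 3, 0 and 1 in the 3 comparisons. Deviations from the group means correlated above 0.1 in 5 of the 9 pairs of same-numbered libraries, with correlations from -0.22 to 0.37. Of the 9 libraries 3 correlated best with their own number, so the numbers were not taken to pair the samples.

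Over the 11 called carriers and 19 alternatives the call was kept in 88 of 209 cases and lost in 121. No direction turned, but in 105 of the 209 the alternative leaves the fold change as reported, so the other 104 alone bear on direction. SLC6A18 and SLC25A38B held in 13 of 19, and SLC2A8 in 4. Quantile normalization changed the sign of 33 of the 192 carriers at 48 h against 12 h, and of 8 at 12 h against 0 h. Over all features it turned the split at 48 h against 12 h from 485 higher and 278 lower to 264 and 358. Depth bears most on the lowest carriers. At the carriers' median length 5 TPM stood for about 184 to 240 reads, an estimate made from short features of 1 transcript. Of the 192 carriers 177 were features of more than 1 transcript. The part of depth in the results was not tested.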
